A study of Mus musculus with 8 samples.

Results

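The NRF2 antioxidant genes were followed in cultured mouse blood progenitors with and without malonyl-CoA. They are 10 genes taken by name from 48709 gene identifiers: Hmox1, Nqo1, Gclc, Gclm, Txnrd1, Srxn1, Slc7a11, Prdx1, Sqstm1 and Fth1. Each symbol matched 1 identifier, and all 10 passed the filter on low counts that left 12696 genes for testing. The cells were hematopoietic stem and progenitor cells (HSPCs) of C57Bl/6J mice, sorted as lineage-negative, Sca1-positive and cKit-positive, and no genetic change is named for either group. Controls spent 7 days in a serum-free medium whose cytokines were 100 ng/ml stem cell factor and 2 ng/ml Flt3 ligand, and the second group had 100 µM malonyl-CoA in the same medium. Each group held 4 libraries, numbered 1, 3, 4 and 5, each made from the progeny of 10000 seeded cells. The libraries therefore describe mixed cultures after 7 days and not the sorted cells. The series title names lipid metabolism and progenitor behavior as its subject, and antioxidant genes are not mentioned there.

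NRF2, encoded by Nfe2l2, is a transcription factor that is held in the cytoplasm and marked for degradation by its partner KEAP1. When electrophiles or oxidants modify cysteines of KEAP1, newly made NRF2 escapes, enters the nucleus, pairs with a small MAF protein and binds antioxidant response elements. Its targets make glutathione, reduce peroxides and quinones, break down heme and store iron. BACH1 competes for the same elements and represses several of the targets until heme releases it. In blood formation, NRF2 and the control of reactive oxygen are known to bear on the balance between quiescence and differentiation of stem cells.

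Counts assigned to genes ranged from 17492085 to 22079844 per library, and each of the 28 pairs of libraries differed beyond counting noise (chi-square per gene at least 7.63). The members rested on 171 reads (Nqo1 in malonyl-CoA 4) to 40887 reads (Fth1 in malonyl-CoA 3). Some libraries stood apart. Malonyl-CoA 4 and control 4 lay at 63.3 and 25.3 on the first principal component of all tested genes, where the other 6 lay between -30.4 and 0.40. Deviations in control 5 ran against transcript GC content (Spearman's rho -0.67, over genes, which are not independent). All 11 stem and progenitor markers, Kit and Cd34 among them, passed the filter. With malonyl-CoA 3 were higher and 8 lower (2 at an unadjusted p under 0.05 in edgeR, both lower, where 4.10% of all genes were). The erythroid genes Slc4a1 and Alas2 had 0 reads in every library. Summed levels of the 10 erythroid markers were 6.75 to 7.85 CPM in control and 5.45 to 7.50 CPM with malonyl-CoA. CPM are read counts scaled to library size with TMM factors. In bulk RNA, fewer cells of a type and less RNA per cell cannot be told apart.

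The promoter windows below show where 4 of the members carry the core of the antioxidant response element close to a start site. Sequences are from RefSeq (GRCm38.p6) and run from 250 bases before to 50 bases after a start site. The motif searched was TGACNNNGC on either strand, and capitals mark it. All 4 matches lie on the strand opposite to the gene, so the printed letters are the reverse complement.
Gclm, GRCm38.p6, chr3:122245307-122245606, plus strand: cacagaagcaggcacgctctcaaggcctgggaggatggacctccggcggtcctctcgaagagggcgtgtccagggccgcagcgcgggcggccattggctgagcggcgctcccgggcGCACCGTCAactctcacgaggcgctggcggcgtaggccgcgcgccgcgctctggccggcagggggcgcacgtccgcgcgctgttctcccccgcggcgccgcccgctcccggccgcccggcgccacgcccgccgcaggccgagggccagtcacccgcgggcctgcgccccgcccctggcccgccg
Txnrd1, GRCm38.p6, chr10:82858956-82859255, plus strand: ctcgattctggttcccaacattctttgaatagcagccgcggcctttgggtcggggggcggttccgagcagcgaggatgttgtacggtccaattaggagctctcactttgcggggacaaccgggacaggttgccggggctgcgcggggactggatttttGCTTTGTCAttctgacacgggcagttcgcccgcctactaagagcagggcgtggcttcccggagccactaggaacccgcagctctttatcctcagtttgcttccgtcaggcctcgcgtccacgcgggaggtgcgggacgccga
Srxn1, GRCm38.p6, chr2:152105274-152105573, plus strand: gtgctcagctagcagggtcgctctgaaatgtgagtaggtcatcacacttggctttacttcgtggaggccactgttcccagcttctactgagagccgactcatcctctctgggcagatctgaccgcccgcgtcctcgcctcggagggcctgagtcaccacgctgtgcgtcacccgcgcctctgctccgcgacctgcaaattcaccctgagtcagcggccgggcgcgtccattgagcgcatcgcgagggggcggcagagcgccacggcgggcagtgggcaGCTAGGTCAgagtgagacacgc
Prdx1, GRCm38.p6, chr4:116685349-116685648, plus strand: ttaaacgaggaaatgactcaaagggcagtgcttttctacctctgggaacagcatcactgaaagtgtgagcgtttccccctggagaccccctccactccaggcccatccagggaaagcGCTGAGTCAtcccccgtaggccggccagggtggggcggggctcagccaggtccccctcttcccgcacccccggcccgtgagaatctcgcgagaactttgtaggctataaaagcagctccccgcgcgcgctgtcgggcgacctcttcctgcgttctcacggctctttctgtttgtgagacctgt

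Hmox1 and Gclc had no window in the sequence source used and were not searched. Of the 8 members with a window, 4 held a match, in 4 of their 11 windows. Among all 32851 windows of that length, 12.4% held one, and among the 27025 genes with a window, 14.0% held one in any window. Read on its own strand, the match was TGACGGTGC in Gclm, TGACAAAGC in Txnrd1, TGACCTAGC in Srxn1 and TGACTCAGC in Prdx1. The matches of Gclm, Txnrd1 and Prdx1 began 134, 92 and 133 bases before the start site, and that of Srxn1 at base 29 after it. The Prdx1 match contains TGACTCA, the site of AP-1 factors. The alternative core TGAGNNNGC, searched after the first and found in 17.6% of all windows, was in windows of Srxn1, Slc7a11 and Prdx1. In Srxn1 it read TGAGTCAGC at 45 bases before the start site, again across an AP-1 site. A match describes letters in a window and does not show binding.

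No gene among the 10 passed the test of malonyl-CoA against control. With edgeR's quasi-likelihood test, 0 of 10 passed an adjusted p of 0.05, as did 0% of all genes, and 0 of 10 had an unadjusted p under 0.05, against 9.53% of all genes. DESeq2 called 0 of the 10, against 0.376% of the 21820 genes with any read, a wider set than the 12696 of edgeR. With limma-voom, 0 of the 10 were called, against 0% of the 12696. With the replicate number as a block, which the labels do not tie to shared material, edgeR also called 0 of the 10 at the adjusted threshold, while 4 had an unadjusted p under 0.05, against 25.5% of all genes. Higher means with malonyl-CoA were seen in 7 and lower means in 3, with a median log2 fold change of 0.18, where 53.4% of all genes were higher and their median was 0.023. The groups overlapped in all 10 genes, while 6.14% of all genes had no overlap. Fold changes below are malonyl-CoA over control on a log2 scale.

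**Figure D1:**
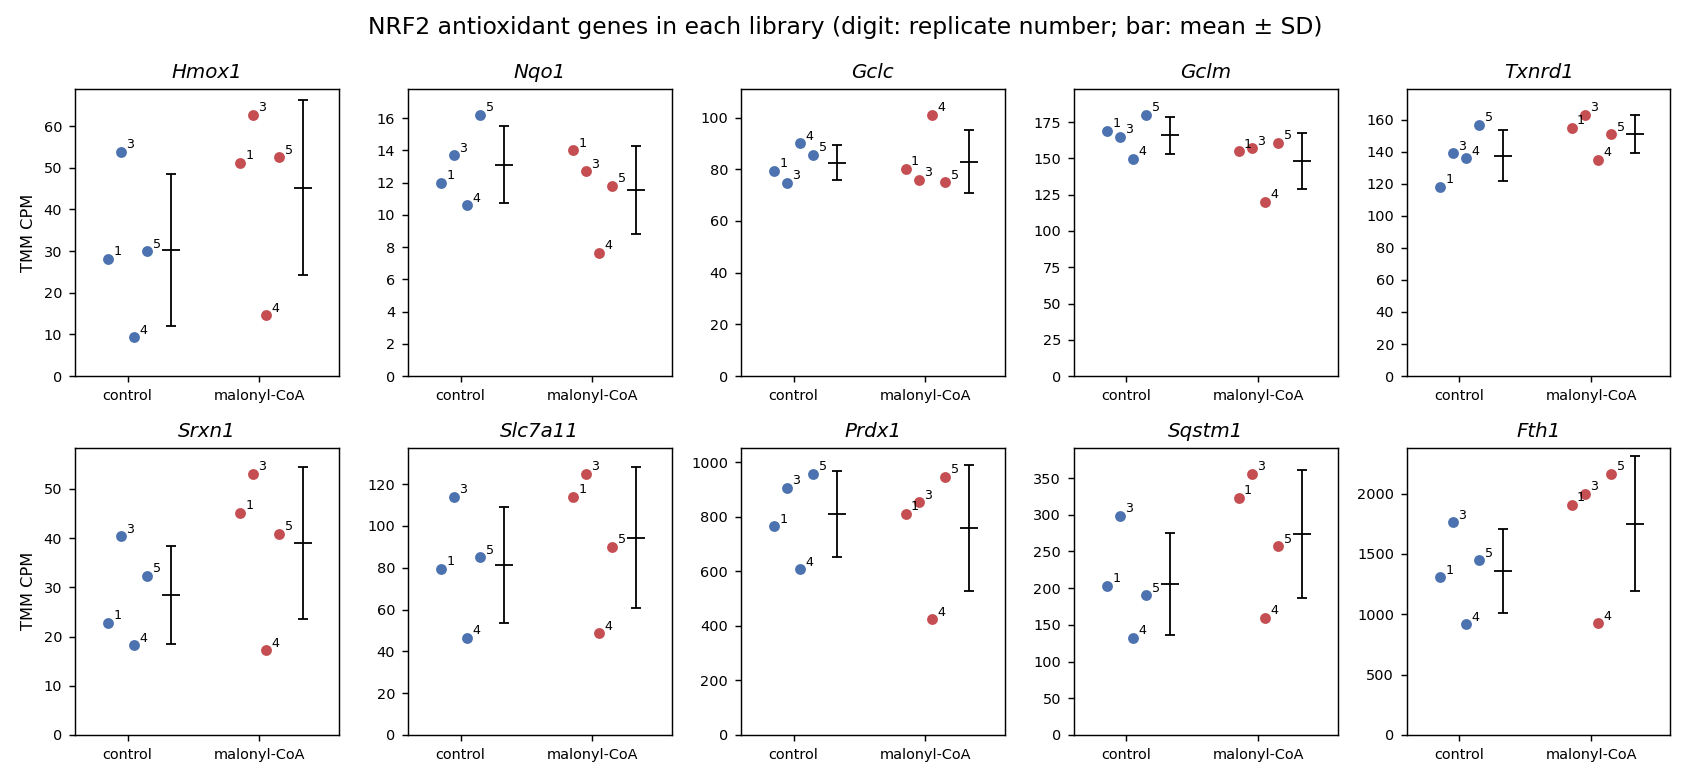
Level of each gene in every library, as TMM CPM on a linear axis from 0, with the replicate number beside each point and the mean ± SD (n = 4) as a black bar. Points numbered 4 lie at the bottom of both groups in most panels, while Gclc has its highest value, 101 CPM, in malonyl-CoA 4.

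Heme breakdown held the member with the widest range over libraries. Hmox1 encodes heme oxygenase 1, which opens the heme ring and frees iron, and is a classic target of both NRF2 and BACH1 (ENSMUSG00000005413, GRCm38 chromosome 8, 75093621 to 75100589). It stood at 28.1, 53.9, 9.32 and 30.0 CPM in controls 1, 3, 4 and 5, and at 51.2, 62.7, 14.6 and 52.5 CPM in malonyl-CoA 1, 3, 4 and 5. The libraries numbered 4 were the lowest of each group, and control 3 lay above malonyl-CoA 1 and 5. Group means were 30.3 ± 18.3 and 45.2 ± 21.1 CPM (SD, n = 4 in either group), a log2 fold change of 0.58 (SE 0.52, adjusted p = 0.632 in edgeR). That value was 0.28 without control 4 and 1.01 without control 3, so the choice of control libraries moved it more than 1.5 times in either direction.

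Fth1, the heavy chain of ferritin, oxidizes and stores iron, and its mRNA is also under translational control by iron (ENSMUSG00000024661, chromosome 19, 9980598 to 9985098). Its level was 1307, 1762, 917 and 1446 CPM in controls 1, 3, 4 and 5 and 1909, 1998, 924 and 2165 CPM in malonyl-CoA 1, 3, 4 and 5. Malonyl-CoA 1, 3 and 5 exceeded every control, and malonyl-CoA 4 lay at the level of control 4. The log2 fold change was 0.37 (SE 0.28, adjusted p = 0.580 in edgeR). Ftl1, the light chain that completes the ferritin shell, averaged 326 ± 51.1 CPM in the controls and 458 ± 106 CPM under malonyl-CoA (SD, n = 4 in either group), a log2 fold change of 0.49 (SE 0.19, adjusted p = 0.502 in edgeR). Per kilobase of exon, heavy over light chain was 1.50, 1.78, 1.37 and 1.70 in the controls and 1.41, 1.75, 1.13 and 1.51 with malonyl-CoA, in the same order of numbers. The ratio thus varied as much inside each group as between them. Exon length merges all annotated transcripts of a gene, so the size of such a ratio depends on the annotation.

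The cystine and glutathione branch did not move as a block. Slc7a11 is the transport chain of the cystine-glutamate exchanger that feeds glutathione synthesis, and answers to ATF4 as well as NRF2 (ENSMUSG00000027737, chromosome 3, 49892526 to 50443614). It was at 79.6, 114, 46.5 and 85.0 CPM in controls 1, 3, 4 and 5 and at 114, 125, 48.7 and 89.9 CPM in malonyl-CoA 1, 3, 4 and 5. Both libraries numbered 4 were low and the remaining values interleaved (log2 fold change 0.22, SE 0.32, adjusted p = 0.767 in edgeR). Its partner Slc3a2, the heavy chain that carries the exchanger to the membrane, ranged from 94.5 to 128 reads per kilobase of exon scaled to library size (RPKM), where Slc7a11 ranged from 3.34 to 9.01 RPKM.

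Gclc and Gclm encode the catalytic and the modifier subunit of glutamate-cysteine ligase, the rate-limiting enzyme of glutathione synthesis. Gclc (ENSMUSG00000032350, chromosome 9, 77754535 to 77794485) was at 79.5, 74.7, 90.1 and 85.7 CPM in the controls and 80.1, 75.9, 101 and 74.9 CPM with malonyl-CoA. Here the libraries numbered 4 were the highest of each group, the reverse of Hmox1. Its log2 fold change of 0.0091 (SE 0.13, adjusted p = 0.979 in edgeR) was the smallest of the 10, and it took either sign when libraries were left out. Gclm (ENSMUSG00000028124, chromosome 3, 122245557 to 122270732) was at 169, 165, 149.6 and 180.0 CPM in the controls and 155, 157, 120.0 and 161 CPM with malonyl-CoA. Only control 4 among the controls lay below the highest malonyl-CoA library (log2 fold change -0.16, SE 0.12, adjusted p = 0.578 in edgeR). Modifier over catalytic subunit, per kilobase of exon, was 1.27, 1.32, 0.994 and 1.26 in the controls and 1.16, 1.24, 0.710 and 1.29 with malonyl-CoA, lowest in the library numbered 4 of each group.

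In the thioredoxin and peroxiredoxin branch, Txnrd1 was among the steadiest genes. Txnrd1 is the cytosolic selenoenzyme that reduces thioredoxin with NADPH (ENSMUSG00000020250, chromosome 10, 82833951 to 82897712). It was at 118, 139, 136 and 157 CPM in controls 1, 3, 4 and 5 and at 155, 163, 135 and 151 CPM in malonyl-CoA 1, 3, 4 and 5. All values lay within a 1.38-fold range, and the log2 fold change was 0.13 (SE 0.12, adjusted p = 0.620 in edgeR).

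Srxn1, sulfiredoxin, repairs peroxiredoxins whose cysteine has been over-oxidized (ENSMUSG00000032802, chromosome 2, 152105516 to 152111376). It was at 22.8, 40.4, 18.2 and 32.3 CPM in the controls and 45.2, 53.1, 17.2 and 40.9 CPM with malonyl-CoA. Malonyl-CoA 1, 3 and 5 exceeded every control, and malonyl-CoA 4 was the lowest of all 8 (log2 fold change 0.46, SE 0.35, adjusted p = 0.580 in edgeR). Prdx1, the abundant peroxiredoxin that Srxn1 repairs (ENSMUSG00000028691, chromosome 4, 116685544 to 116700822), was at 764, 905, 607 and 957 CPM in the controls and 811, 852, 424 and 946 CPM with malonyl-CoA. The groups covered much the same range apart from the low malonyl-CoA 4 (log2 fold change -0.093, SE 0.24, adjusted p = 0.874 in edgeR). Of the 50-base stretches in Prdx1 transcripts, 8.29% also occur in transcripts of other genes, so part of its reads may have been set aside as non-unique. Shares for the other members were 0% to 3.92%.

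Nqo1 reduces quinones and is a common readout of NRF2 (ENSMUSG00000003849, chromosome 8, 107388225 to 107403206). It was scarce, at 12.0, 13.7, 10.6 and 16.2 CPM in the controls and 14.0, 12.7, 7.64 and 11.8 CPM with malonyl-CoA. The mean was lower with malonyl-CoA, opposite in sign to Hmox1, and within the spread of either group (log2 fold change -0.19, SE 0.21, adjusted p = 0.693 in edgeR). Without control 5 and malonyl-CoA 4 the sign turned, to 0.088.

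Sqstm1 encodes p62, a receptor that brings ubiquitinated cargo to autophagosomes and also binds KEAP1, which links it back to NRF2 (ENSMUSG00000015837, chromosome 11, 50199366 to 50210827). Its level was 203, 299, 132 and 190.2 CPM in the controls and 323, 356, 159.5 and 257 CPM with malonyl-CoA. Malonyl-CoA 1 and 3 lay above every control and the other 2 did not (log2 fold change 0.41, SE 0.29, adjusted p = 0.558 in edgeR, the smallest adjusted p of the 10). Sqstm1 shares 580 bases of exon with Mrnip on the opposite strand, and the strand setting of the counter is not given. Mrnip averaged 137.8 reads, against at least 2834 for Sqstm1.

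**Figure D2:**
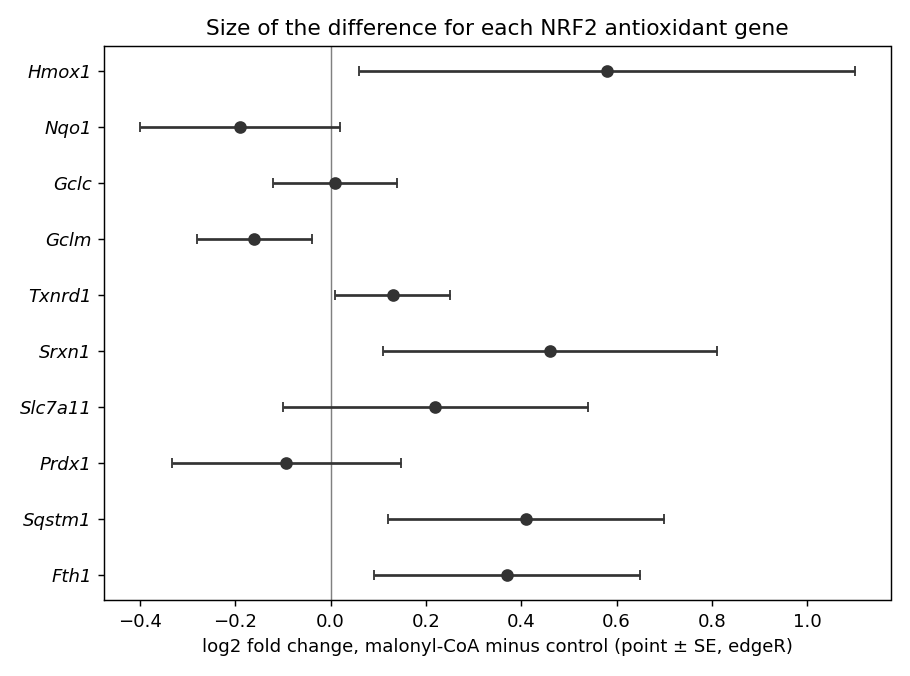
Log2 fold change of each gene, malonyl-CoA minus control, as a point with its standard error from edgeR. Hmox1 has the highest value, 0.58, and the widest bar, while Gclc, Gclm and Txnrd1 have bars of 0.12 to 0.13 and lie near 0.

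What the members shared was an ordering of libraries that ran across the groups. Control 4 and malonyl-CoA 4 were the lowest libraries of all 8 in 8 of 10 genes, the exceptions being Gclc and Txnrd1, where 14.4% of all tested genes had those libraries lowest. Malonyl-CoA 3 was the highest library in 5 genes and control 5 in 3. The highest library exceeded the lowest 6.73-fold for Hmox1, 3.08-fold for Srxn1, 2.70-fold for Slc7a11 and Sqstm1, 2.36-fold for Fth1, 2.26-fold for Prdx1 and 2.13-fold for Nqo1. In Gclm, Txnrd1 and Gclc it was 1.50-fold, 1.38-fold and 1.35-fold. Over the 9035 genes with a mean of at least 10 CPM the median was 1.66-fold, and 1.44% of them had a wider range than Hmox1. The members therefore fell into 7 with a wider and 3 with a narrower range than the median gene. Single libraries therefore weighed on the fold changes: without control 4, Slc7a11 was 0.026, Sqstm1 0.25 and Fth1 0.22, and without malonyl-CoA 3 Srxn1 was 0.28. At the other end, without control 5 and malonyl-CoA 4, Srxn1 was 0.78, Fth1 0.61 and Slc7a11 0.46, and Sqstm1 was 0.64 without control 3.

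Leaving out both libraries numbered 4 separated the groups in 3 of the 10 genes. That count is near what the shares of all genes in the 2 directions, given below, would bring. Fth1 averaged 1505 ± 233 CPM in control and 2024 ± 130.2 CPM with malonyl-CoA, and Srxn1 31.9 ± 8.82 and 46.4 ± 6.19 CPM (SD, n = 3 each), with all malonyl-CoA libraries above all controls. Among all genes, 13.5% separated that way. Gclm averaged 171 ± 7.72 and 158 ± 3.07 CPM (SD, n = 3 each), with all malonyl-CoA libraries below, as in 12.9% of all genes. With those libraries left out edgeR called 0 of the 10.

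**Figure D3:**
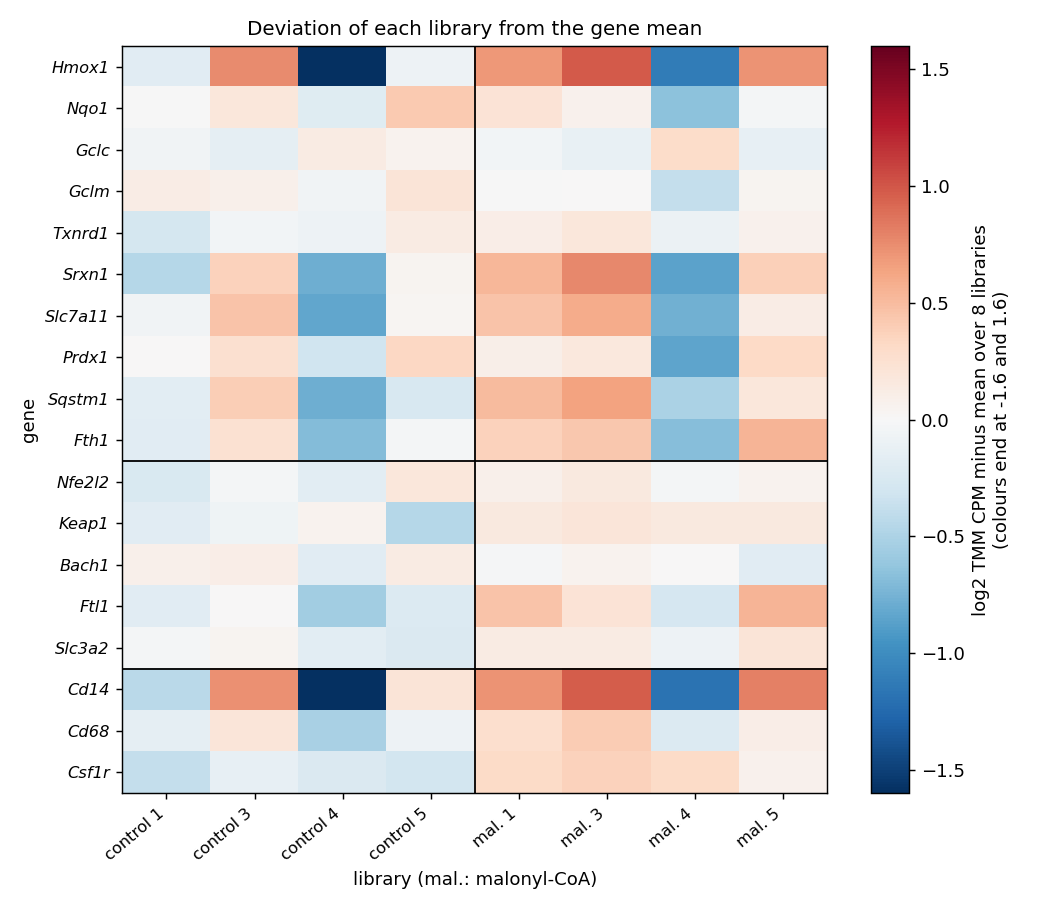
Log2 TMM CPM of each gene in each library minus its mean over the 8 libraries, with the members on top, regulators and partner chains in the middle and monocyte markers at the bottom. Blue cells in the columns of control 4 and malonyl-CoA 4 run through most members and through Cd14, and are absent from Gclc and Csf1r in malonyl-CoA 4.

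Some monocyte markers shared the order of libraries seen in the wide-ranging members, and most did not. Of the 11 tested, Cd14, Cd68 and Ccr2 had the libraries numbered 4 as their lowest pair. Cd14, a monocyte co-receptor for bacterial lipid, was at 46.2, 104, 17.8 and 72.3 CPM in the controls and 103, 122, 27.7 and 109 CPM with malonyl-CoA, lowest in the same libraries as Hmox1. The macrophage growth factor receptor gene Csf1r did not share that order, with 323 CPM in malonyl-CoA 4 and means of 219 ± 16.4 and 315 ± 27.8 CPM (SD, n = 4 in either group). Of the 11 monocyte and macrophage markers tested, 8 were higher and 3 lower with malonyl-CoA, and 0 passed the adjusted threshold in edgeR (3 had an unadjusted p under 0.05, all higher, where 5.43% of all genes did). Their summed level ran from 2112 to 2669 CPM in control and from 2213 to 2656 CPM with malonyl-CoA, and no marker was at 0 in all libraries. Of dendritic cell markers 6 of 8 tested were higher (3 at an unadjusted p under 0.05, all higher, where 5.43% of all genes were). They summed to 879.7 to 1498 CPM in control and 1009 to 1912 CPM with malonyl-CoA. Markers of other cells were lower more often. Granulocyte markers were lower in 11 of 12 (5 at an unadjusted p under 0.05, all lower), lymphoid markers in 5 of 5 tested (3) and mast cell and basophil markers in 6 of 9 tested (4), where 4.10% of all genes were lower at that threshold. Their summed levels in control and malonyl-CoA libraries were 13647 to 21525 and 13832 to 17744 CPM for granulocytes, 175 to 218 and 152 to 198 CPM for lymphoid cells, and 843 to 1036 and 691 to 828 CPM for mast cells and basophils. Of megakaryocyte markers 4 of 7 were higher (0 at that threshold), with sums of 923 to 1145 and 725 to 1067 CPM, and of stromal and endothelial markers 4 of 5 tested (2, both higher), with 126 to 187 and 141 to 217 CPM. The part of any of these cell types in the values of Hmox1, Srxn1, Sqstm1 and Fth1 was not tested.

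Genes with the most similar profile over the 8 libraries were looked up for the 4 members with the smallest unadjusted p, by Pearson's r of log2 CPM among 10619 genes. They were picked as the highest of many, so r is a description only. For Sqstm1 they were Sgk1 (r = 0.984), a kinase of salt and stress signaling, the lysosomal macrophage marker Cd68 (0.983) and Slc11a1 (0.978), a metal transporter of phagosomes. For Fth1 they were Slfn2 (0.993), Ifi44 (0.989) and Irgm2 (0.985), all known as interferon-responsive. For Srxn1 they were the cathepsin gene Ctsb (0.994), Car13 (0.987) and the intermediate filament gene Vim (0.978). For Gclm, which ranged little, they were the chaperonin gene Tcp1 (0.993), Tmem167 (0.988) and Spcs3 (0.988), a subunit of the signal peptidase.

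Levels in RPKM spanned 70.9-fold between the most and the least abundant member. The length used was that of all annotated exons merged (3469 bases for Fth1, 13922 for Slc7a11). Span and order therefore depend on which transcripts are annotated. Fth1 led with 391 ± 101 in the controls and 504 ± 162 under malonyl-CoA (SD, n = 4 in either group), followed by Prdx1 with 266 ± 51.7 and 249 ± 75.6. Fth1 was above Prdx1 in all 8 libraries although their ranges touched. Sqstm1 came next, at 39.3 to 106 RPKM, with no overlap to its neighbours on either side. Gclm, Gclc, Hmox1 and Txnrd1 followed with overlapping ranges, and their order changed between libraries: Gclc was above Hmox1 in 4 of 8. Srxn1, Nqo1 and Slc7a11 were lowest, with medians of 12.9, 7.95 and 6.28 RPKM. Nfe2l2 itself had a median of 44.9 RPKM, above that of Keap1 (17.1) and Bach1 (16.1).

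The regulators of NRF2 gave no call. Nfe2l2 averaged 162 ± 21.2 CPM in the controls and 177 ± 9.65 CPM under malonyl-CoA (SD, n = 4 in either group; log2 fold change 0.12, SE 0.12, adjusted p = 0.639 in edgeR). Keap1 was at 65.9, 71.7, 77.7 and 54.6 CPM in the controls and 83.8, 85.6, 83.4 and 83.3 CPM with malonyl-CoA. Every malonyl-CoA library lay above every control, as in 3.21% of all genes, yet the test was not passed (log2 fold change 0.32, SE 0.12, adjusted p = 0.503 in edgeR), and after correction for GC content and length the value was -0.0041. Bach1 averaged 100.1 ± 9.48 and 95.3 ± 6.41 CPM (log2 fold change -0.070, SE 0.11). Nfe2l1, a relative of NRF2 that drives proteasome genes, averaged 118 ± 26.8 and 173 ± 34.0 CPM (log2 fold change 0.55, SE 0.19, adjusted p = 0.482 in edgeR). Its value was 0.30 after the GC and length correction. Rbx1, a subunit of the ubiquitin ligase that KEAP1 serves, had -0.25 (SE 0.16), and -0.14 after that correction. Of the 10 regulators 6 were higher and 4 lower, with a median of 0.12 that was -0.044 after the GC and length correction.

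**Figure D4:**
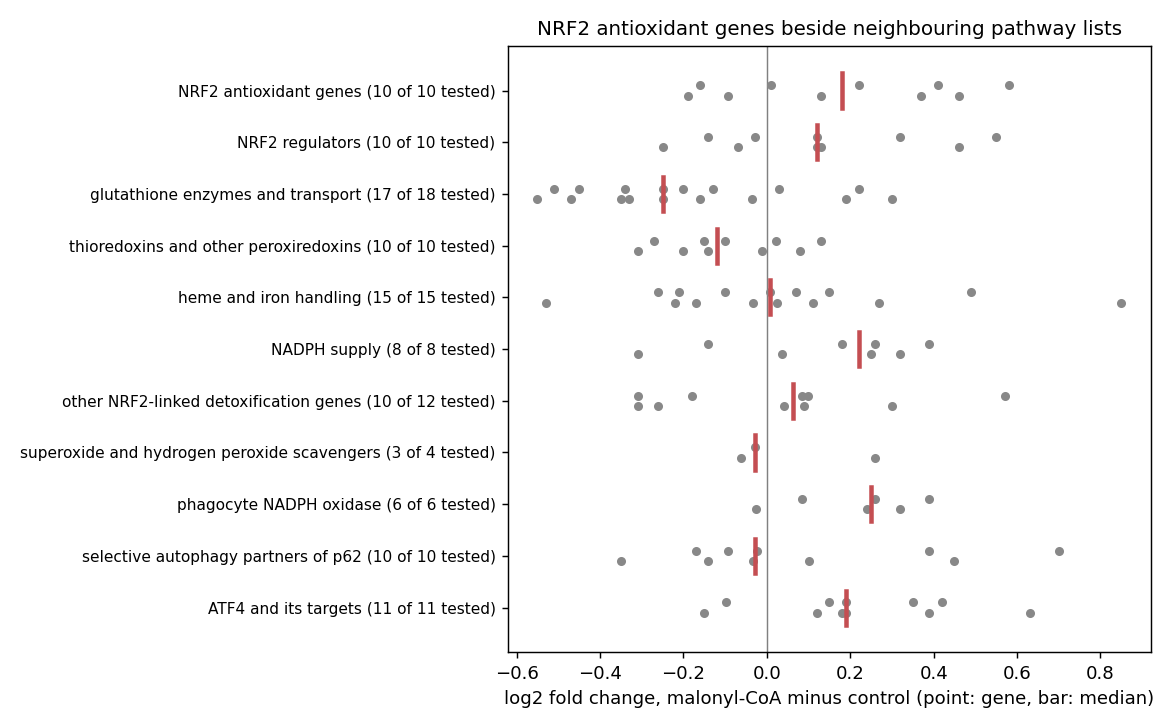
Log2 fold change of every tested gene (grey points) and the median (red bar) of the NRF2 antioxidant genes and 10 neighbouring lists. The members' median is 0.18, and that of glutathione enzymes and transport is -0.25.

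Other genes of the pathway gave no called gene either, by edgeR, DESeq2 or limma-voom. Glutathione enzymes and transport had 4 of 17 tested members higher and 13 lower. Their median log2 fold change was -0.25, opposite in sign to the median of the 10 NRF2 antioxidant genes. Unadjusted p-values under 0.05 came from 1 higher and 4 lower genes, where the shares of all genes were 5.43% and 4.10%. Mgst2, a microsomal glutathione transferase, averaged 72.3 ± 9.04 CPM in the controls and 49.5 ± 9.87 CPM under malonyl-CoA (SD, n = 4 in either group), with no overlap (log2 fold change -0.55, SE 0.16, adjusted p = 0.398 in edgeR). Gpx3, a secreted glutathione peroxidase, stood at -0.51 on the log2 scale (SE 0.19), and the glutathione conjugate exporter gene Abcc1 0.30 (SE 0.12), which was -0.017 after the GC and length correction.

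Thioredoxins and other peroxiredoxins had 3 of 10 higher (median -0.12), with the mitochondrial Prdx3 at -0.31 (SE 0.17) and Prdx6 at -0.27 (SE 0.16). Heme and iron genes had 8 of 15 higher and 7 lower (median 0.0065). Among them Slc40a1, ferroportin, the only known iron exporter of the cell surface, stood at 21.2, 21.0, 15.6 and 17.7 CPM in the controls and 13.1, 13.4, 12.6 and 13.2 CPM with malonyl-CoA. All malonyl-CoA libraries lay below all controls, as in 2.93% of all genes (log2 fold change -0.53, SE 0.14, adjusted p = 0.352 in edgeR). Ireb2, an iron-sensing regulator of mRNAs such as that of ferritin, had -0.26 (SE 0.10), and Slc11a1 had 0.85 (SE 0.41).

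Enzymes that supply or use NADPH were mixed in sign. NADPH supply had 6 of 8 higher (median 0.22, and 0.069 after the GC and length correction and 0.098 without control 5), with the NAD kinase gene Nadk at 0.32 (SE 0.13), G6pdx, the entry enzyme of the pentose phosphate pathway, at 0.25 (SE 0.13), and Nnt, the mitochondrial transhydrogenase, at -0.31 (SE 0.11). Other NRF2-linked detoxification genes had 6 of 10 tested members higher (median 0.062). Among them were Osgin1 at 0.57 (SE 0.26), Ptgr1 at -0.31 (SE 0.11) and Nqo2, a relative of Nqo1, at -0.26 (SE 0.12). Osgin1 was scarce, with means of 1.46 CPM in the controls and 2.17 CPM with malonyl-CoA. After the GC and length correction these 3 values were 0.30, -0.27 and -0.13. Superoxide and peroxide scavengers had 1 of 3 tested members higher (median -0.028), Sod2 of mitochondria at 0.26 (SE 0.16). The medians of the heme, detoxification and scavenger lists changed sign under 5 or 6 of 18 alternatives, so no direction is given for them.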

How the data were processed

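Stranded libraries were prepared from 350 ng RNA of 4 control and 4 malonyl-CoA cultures, per the labels' protocols. The authors deposited raw counts by Ensembl identifier in a separate file for each library. The submitters' processing notes name cutadapt 1.8, STAR 2.5.2b, HTSeq 0.6.1 and GRCm38. The annotation release was not given in the sources used here, nor the strand setting. Counter classes that name no gene were kept out of library sizes. Of all entries tallied by the counter, 1.11% to 2.94% fell in no gene and 0.715% to 0.891% were ambiguous. A further 38.2% to 51.1% had several positions. These are shares of the counter's tally, and were not checked to be shares of distinct reads. Malonyl-CoA 4 had both the highest share in no gene (2.94%) and the lowest with several positions (38.2%). Control 4 came next in both, at 1.56% and 44.3%. The bearing of this on the low values of these libraries was not tested. Symbols, coordinates and exon lengths came from GENCODE M21 (GRCm38), which matched 48349 of 48709 identifiers.

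Counts were tested with edgeR 4.0.16 (R 4.3.3): filterByExpr (minimum count 10, total 15), TMM factors, robust glmQLFit (legacy off) and two-sided glmQLFTest, without covariates, with Benjamini-Hochberg adjustment over 12696 genes and a threshold of 0.05. Standard errors were derived from the fold change and its F statistic. The labels call the libraries biological replicates without naming the unit, so p-values measure the spread between these samples. The fits were tested on simulated data first. DESeq2 1.42.0, limma-voom (limma 3.58.1), other scalings and filters, a GC and length correction (loess, span 0.5), the replicate number as a block and left-out libraries were alternatives.

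The 10 genes and all lists were chosen with earlier results of these data known. Lists are described by counts and medians, without a test. Beside all 10 genes, the rule named up to 2 genes per direction in each list by smallest unadjusted p, and Nfe2l2, Keap1, Bach1, Slc3a2, Ftl1 and Atf4. Not every gene it names is described. The 9 marker lists of cell types are described by counts, mostly with summed levels, also without a test. The naming rule was not applied to them, and the markers described singly are examples that were not chosen by p.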

Additional observations from a re-analysis of the deposited data

Results flagged for a closer look

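Among 80 groups of 4 libraries (40 genes in each of the 2 conditions), 2 held a library far from the other 3, where chance flags about 5% of groups. Gclm stood at 120.0 CPM in malonyl-CoA 4, while the other malonyl-CoA libraries lay between 155 and 161 CPM. Atf4, the transcription factor of the amino acid response that also acts on Slc7a11, stood at 1016 CPM in malonyl-CoA 5, against 822 to 843 CPM in the others.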

How the results depend on the processing

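Under all 18 alternatives 0 of the 10 genes passed the threshold, and their median log2 fold change stayed positive, from 0.075 without malonyl-CoA 3 to 0.36 without control 5 and malonyl-CoA 4. Over all genes the count was 0 as reported, 1 with no low-count filter and 82 with DESeq2. The replicate number as a block gave 172 genes and 0 of the 10, and an unadjusted p under 0.05 for 4 of the 10 (Hmox1, Sqstm1, Fth1 and Srxn1), against 25.5% of all genes. Its smallest adjusted p among them was 0.0609 for Hmox1 (log2 fold change 0.63, SE 0.13) and 0.0671 for Sqstm1 (0.41, SE 0.094). The libraries of the same number deviated together for numbers 1, 3 and 4 (correlation 0.43, 0.43 and 0.75) and not for 5 (0.052). Some libraries of different numbers reached nearly the values of numbers 1 and 3. Control 1 with malonyl-CoA 5 had 0.42, and control 3 with malonyl-CoA 1 had 0.41. Controls 1, 3 and 4 each correlated best with the malonyl-CoA library of their own number, and control 5 with malonyl-CoA 3 (0.12). The numbers were not taken as pairs in the main fit because the labels do not tie them to shared material. Between libraries of the same number, Hmox1, Slc7a11, Sqstm1 and Fth1 were higher with malonyl-CoA in 4 of 4 comparisons, as were 18.1% of all genes, and Gclm was lower in 4 of 4, as were 17.0%. Several signs turned. Gclc ranged from -0.11 to 0.055 with 1 library left out, and was -0.061 without both libraries numbered 4 and -0.082 without control 5 and malonyl-CoA 4. Prdx1 ranged from -0.22 to 0.099 with 1 library left out, was 0.060 after the GC and length correction and 0.20 without control 5 and malonyl-CoA 4, where Nqo1 was 0.088. After the GC and length correction Keap1 was -0.0041, Abcc1 -0.017 and Calcoco1 -0.0068, from 0.32, 0.30 and 0.39. The cause of these changes was not tested.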

Other observations

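The NADPH oxidase of phagocytes, which makes superoxide, had 5 of 6 subunit genes higher with malonyl-CoA and a median log2 fold change of 0.25 (0.14 after the GC and length correction), with 0 past the adjusted threshold in edgeR, DESeq2 and limma-voom and 2 at an unadjusted p under 0.05, both higher, where 5.43% of all genes were. Ncf1, the organizer subunit p47phox, stood at 306, 359.5, 341 and 366 CPM in controls 1, 3, 4 and 5 and at 408, 418, 416 and 405 CPM in malonyl-CoA 1, 3, 4 and 5. The malonyl-CoA libraries were close to each other and all above the controls, as in 3.21% of all genes (log2 fold change 0.26, SE 0.098, adjusted p = 0.502 in edgeR), and the value was 0.13 after that correction. Ncf4 had 0.32 (SE 0.12).

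ATF4 and its targets, which share Slc7a11 with NRF2, had 9 of 11 genes higher (median 0.19, and 0.048 after the GC and length correction), with 0 past the adjusted threshold and 3 at an unadjusted p under 0.05 in edgeR, all higher, where 5.43% of all genes were. Ddit3, the stress factor CHOP, averaged 9.07 ± 1.00 CPM in the controls and 14.0 ± 4.00 CPM under malonyl-CoA (SD, n = 4 in either group; log2 fold change 0.63, SE 0.20, adjusted p = 0.445 in edgeR), with its highest value, 19.8 CPM, in malonyl-CoA 4, where Slc7a11 was low. Atf5 had 0.35 (SE 0.12) and Atf4 0.15 (SE 0.11), which were 0.042 and 0.011 after that correction. Partners of p62 in selective autophagy had 4 of 10 genes higher (median -0.028), a median that changed sign under 6 of 18 alternatives, from -0.077 to 0.14, so no direction is given. Wdfy3, a scaffold for aggregate clearance, stood at 64.8 CPM in malonyl-CoA 4 and 15.5 to 24.7 CPM in the other malonyl-CoA libraries. Its log2 fold change was 0.70 (SE 0.46), and 0.055 without control 5 and malonyl-CoA 4. Calcoco1 had 0.39 (SE 0.21) and Gabarapl2 -0.35 (SE 0.21).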
